A study of Danio rerio with 12 samples.

Results

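The apelin receptor genes and their ligands were taken from the transcriptome of early zebrafish embryos by gene symbol, ignoring case, and 4 of the 31462 gene identifiers matched. They were the ligand genes apela (ENSDARG00000094729) and apln (ENSDARG00000053279) and the receptor genes aplnra (ENSDARG00000002172) and aplnrb (ENSDARG00000036670). Poly-A RNA was compared between maternal-zygotic smchd1 null embryos (MZ), which carry the lof1 allele and lack both the supply of the mother and their own smchd1, and wildtype embryos (wt), all of the AB strain. Each genotype was collected as 4- to 8-cell embryos, when embryos hold only what the egg supplied, and at a sphere stage, a blastula that has begun to transcribe its own genome. Each of the 4 groups had 3 libraries, and each library was made from 30 to 50 whole embryos, so that a level is a mean over all cells of a pool. The mutant groups rest on 1 allele. The methods call the 3 libraries biological samples. Since the labels name no clutch for them, the spread behind each p-value may be partly or wholly technical.

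Apelin receptors are G protein-coupled receptors at the cell surface. They are activated by small secreted peptides, of which apela (also called Elabela or Toddler) acts in the gastrula and apln (apelin) is best known from vessels and the heart. In zebrafish, apela and the receptors are needed for mesendodermal cells to move properly during gastrulation and for heart progenitors to form, and the receptor pathway has been linked to Nodal signalling.

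Libraries held 7829742 to 23681822 expected counts, read counts that may be split between genes by probability. MZ replicate 1 at the sphere stage was the shallowest, and 3.98% of its counts came from a ribosomal RNA gene, against 0.00632 to 0.398% in the other 11 libraries. The targeted gene matched the labels: smchd1 averaged 6.42 ± 1.23 CPM (counts scaled to a common library size) in MZ and 235 ± 24.0 CPM in wt 4- to 8-cell embryos, and 3.65 ± 0.341 CPM in MZ and 226 ± 56.8 CPM in wt sphere embryos (SD, n = 3 each). Markers of blood and of the ovarian follicle summed to at most 0.789 and 2.63 CPM in any sphere library, while every marker gene listed for the enveloping layer (6 genes) and the yolk syncytial layer (4 genes) had counts in both genotypes at that stage.

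Before zygotic transcription the ligand and receptor transcripts were close to absent in both genotypes. For apela, the 3 MZ libraries held 0, 0 and 1 counts and the 3 wt libraries 3, 1 and 2 counts, in the order of replicates 1, 2 and 3. For apln, counts were 2, 1 and 0 in MZ and 5, 1 and 0 in wt embryos. The 2 ligand genes thus had at most 5 reads in any library of that stage, and the genotypes overlapped for both.

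The receptors were as scarce. aplnra had 2, 0 and 0 counts in MZ and 4, 3 and 3 counts in wt 4- to 8-cell embryos. aplnrb had 2, 1 and 0 counts in MZ embryos and 0 in every wt library, which allows a level of up to 0.0466 CPM over the wt group, the value of 3 counts. The MZ and wt libraries did not overlap for aplnra, as was the case for 28.9% of the genes tested at this stage, but aplnra itself was not tested. Its summed counts gave an MZ to wt ratio of 0.236 with a 95% counting interval of 0.0252 to 1.11, which includes 1. All 4 genes lay below the mean scaled count of 10 needed for a test at this stage, so that a genotype difference was not detectable at this depth. Counting intervals and floors cover counting error only.

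At the sphere stage 3 of the 4 transcripts were abundant. The following levels are CPM after TMM (trimmed mean of M-values) normalisation, and each compares 1 gene across libraries. apela, the early ligand, stood at 37.5, 51.6 and 32.2 CPM in MZ and 57.4, 49.3 and 67.0 CPM in wt sphere embryos. The receptor aplnra stood at 95.7, 80.5 and 48.3 CPM in MZ and 91.9, 87.3 and 61.7 CPM in wt embryos. The receptor aplnrb stood at 197, 93.2 and 88.2 CPM in MZ and 183, 114 and 118 CPM in wt embryos. For every one of these genes the MZ and wt values overlapped, and every sphere library lay far above every 4- to 8-cell library of the same genotype. In these bulk samples, more cells that express a gene and more RNA per cell cannot be told apart. The second ligand, apln, remained near 0, with 0, 3 and 3 counts in MZ and 2, 1 and 1 counts in wt sphere embryos.

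**Figure D1:**
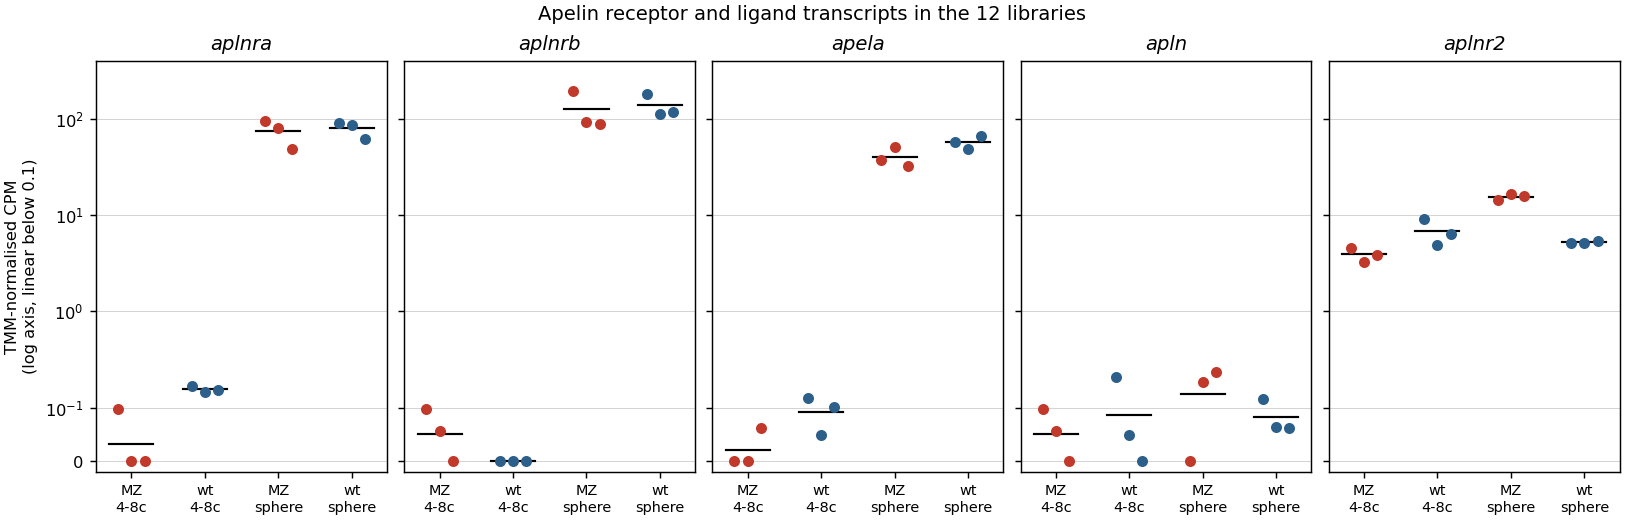
TMM-normalised CPM (log axis, linear below 0.1) of aplnra, aplnrb, apela, apln and the related gene aplnr2 in each of the 12 libraries. Points are libraries (red MZ, blue wt), short lines are group means and 4-8c is the 4- to 8-cell stage. aplnra, aplnrb and apela sit below 0.2 CPM early and above 30 CPM at the sphere stage in both genotypes, apln stays below 0.3 CPM throughout, and aplnr2 is above 3 CPM in all 12 libraries.

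The rise between stages was tested in 1 edgeR quasi-likelihood fit to all 12 libraries, with a Benjamini-Hochberg adjusted p under 0.05 as the threshold. In wt embryos the 3 tested genes apela, aplnra and aplnrb all rose, in a comparison that called 48.3% of 16595 tested genes, 24.7% higher and 23.6% lower. In MZ embryos the same 3 genes rose, where 39.5% of genes were called, 20% higher and 19.6% lower. The split depends on the scaling, since limma on log2(TPM + 1) called 1875 genes higher and 6761 lower for sphere against 4- to 8-cell, MZ, and 1804 higher and 8102 lower for sphere against 4- to 8-cell, wt, with these 3 genes higher in both. In each comparison the libraries of the stages did not overlap for these 3 genes, against 55.4% of all tested genes in wt and 56.8% in MZ embryos. These 3 genes reached the count minimum only through the sphere libraries and so had to differ between stages. The size of the rise is therefore given as a description, with the summed counts behind it.

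The ligand gene apela held 1529 counts over the MZ sphere libraries against 1 over the MZ 4- to 8-cell libraries, a ratio per library size of 2280 (95% counting interval 409 to 90125). In wt embryos it held 2797 counts at the sphere stage against 6, a ratio of 623 (286 to 1699). The edgeR log2 fold changes of apela were 10.65 (SE 0.46) in MZ and 9.23 (SE 0.39) in wt embryos. The wide intervals come from the few reads of the early stage, and those of the genotypes overlap.

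The receptor gene aplnra rose 1972-fold in MZ embryos by summed counts (545 to 16288, from 2 early counts) and 516-fold in wt embryos (280 to 1078, from 10 early counts). Its edgeR log2 fold changes were 10.77 (SE 0.51) in MZ and 9.01 (SE 0.43) in wt embryos. The receptor gene aplnrb rose 2054-fold in MZ embryos (702 to 9962, from 3 early counts). In wt embryos, where no early read was seen, aplnrb was at least 2977-fold higher at the sphere stage, taking 3 counts over the group as the floor. Receptors and early ligand thus shared the same step, from at most 4 reads per library to at least 285.

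The ligand gene apln did not follow. Its summed counts gave a sphere to 4- to 8-cell ratio of 2.98 (95% counting interval 0.637 to 18.4, 6 against 3 counts) in MZ embryos. In wt embryos the ratio was 0.891 (0.185 to 3.76, 4 against 6 counts). Both intervals include 1, and neither could be tested across genes because apln was below the count minimum.

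Whether the rise differed with genotype was asked of the same fit by an interaction term, which called 1.97% of the 16595 genes, 1.1% upward and 0.874% downward. It called 0 of the 3 tested genes in edgeR, DESeq2 or limma, and 0 had an unadjusted p under 0.05. The log2 interactions (stage change in MZ minus stage change in wt) were 1.42 for apela (SE 0.89, adjusted p = 0.441), 1.77 for aplnra (SE 1.00, adjusted p = 0.343) and -3.21 for aplnrb (SE 2.29, adjusted p = 0.466). These standard errors are large because the values rest on 0 to 10 early reads per group, and interactions of several-fold lie within their intervals.

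The genotypes were compared within the sphere stage by edgeR on its 6 libraries, a test that called 7.78% of 16314 genes (3.71% higher and 4.07% lower in MZ). For MZ against wt, sphere, limma on log2(TPM + 1) split its calls into 625 higher and 296 lower, and edgeR with no size factors into 747 higher and 451 lower. Of the 3 tested genes 0 were called by edgeR, and 0 by DESeq2 or limma on log2(TPM + 1). 1 gene, apela, had an unadjusted p under 0.05 in edgeR and in DESeq2, and none had in limma. For all 3 genes the MZ and wt libraries overlapped, while they did not for 34.5% of all tested genes.

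apela averaged 40.4 ± 10.01 CPM in MZ and 57.9 ± 8.87 CPM in wt sphere embryos (SD, n = 3 each). The log2 fold change was -0.53 (SE 0.20, 95% interval -0.99 to -0.07), with an edgeR p of 0.0291 and an adjusted p of 0.130. The overlap came from replicate 2 of each genotype, at 51.6 CPM in MZ and 49.3 CPM in wt. The adjusted p was 0.0770 in DESeq2 and 0.114 to 0.359 when 1 library at a time was left out of the edgeR fit. The ligand was thus below the wt mean in MZ embryos by less than the test could call.

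aplnra averaged 74.8 ± 24.2 CPM in MZ and 80.3 ± 16.3 CPM in wt sphere embryos, a log2 fold change of -0.11 (SE 0.26, 95% interval -0.72 to 0.49, edgeR adjusted p = 0.806). aplnrb averaged 126 ± 61.2 CPM in MZ and 138 ± 39.1 CPM in wt embryos, a log2 fold change of -0.15 (SE 0.34, 95% interval -0.93 to 0.64, edgeR adjusted p = 0.810). On the linear scale the intervals run from 0.607 to 1.41 times the wt level for aplnra and from 0.526 to 1.56 times for aplnrb, so that neither a moderate loss nor a moderate gain of receptor RNA could be told from no difference. The sign of both receptor differences turned when single libraries were left out, with ranges of -0.34 to 0.12 for aplnra and -0.63 to 0.12 for aplnrb.

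**Figure D2:**
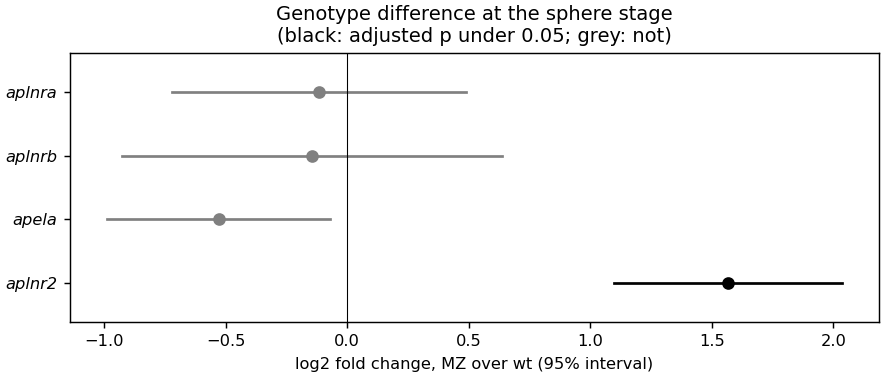
Log2 fold change of MZ over wt embryos at the sphere stage (points) with 95% intervals (lines) from the edgeR fit, for aplnra, aplnrb, apela and aplnr2. The points for aplnra (-0.11), aplnrb (-0.15) and apela (-0.53) are grey, adjusted p over 0.05, and aplnr2 (1.57) is black.

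TPM values, in which each gene's reads are divided by its length, allow the genes to be ordered within the sphere embryos. In MZ embryos aplnrb was at 123, 57.7 and 60.2 TPM, apela at 64.2, 87.1 and 60.0 TPM and aplnra at 74.8, 62.0 and 41.1 TPM. In wt embryos apela was at 87.6, 74.7 and 115 TPM, aplnrb at 104, 63.1 and 73.9 TPM and aplnra at 64.6, 60.4 and 48.2 TPM. The group means thus ran from aplnrb (80.4 ± 37.3 TPM) through apela (70.4 ± 14.6) to aplnra (59.3 ± 17.0) in MZ embryos. In wt embryos they ran from apela (92.4 ± 20.5 TPM) through aplnrb (80.3 ± 21.0) to aplnra (57.7 ± 8.51). Neighbours in either order had overlapping libraries, so that their order is not firm, whereas apela at the top of the wt order exceeded aplnra at its bottom in every wt library. apln was last in both genotypes, at no more than 0.21 TPM.

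**Figure D3:**
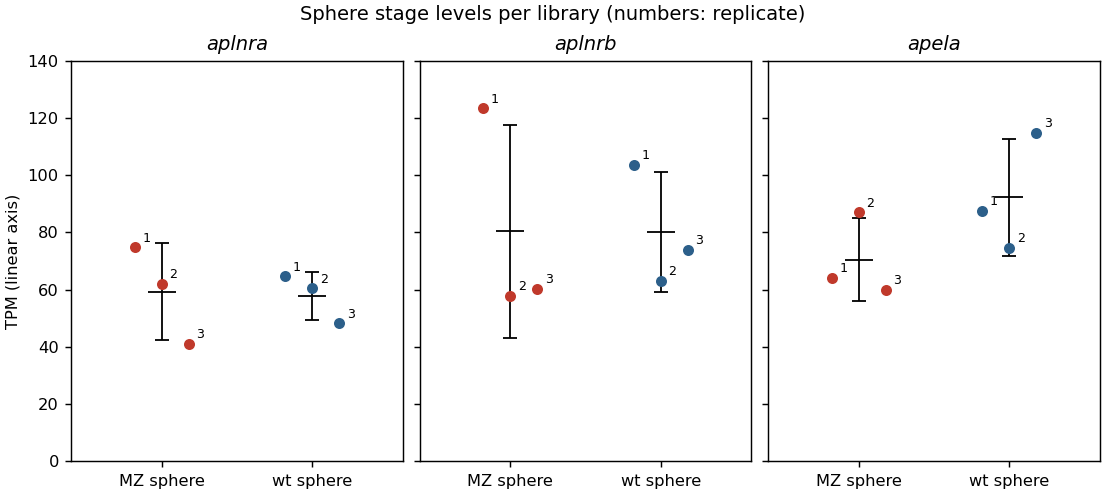
TPM (linear axis) of aplnra, aplnrb and apela in the 3 MZ (red) and 3 wt (blue) sphere libraries, with the replicate number beside each point, the mean (long bar) and the SD (error bar). Replicate 1 is highest for both receptors in both genotypes and the genotypes overlap in every panel.

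The abundance of these transcripts can be placed among genes that, like them, were nearly silent before zygotic transcription. Of 2027 tested genes with a mean under 1 CPM over the early libraries, aplnrb ranked 85 by mean TPM in MZ and 94 in wt sphere embryos. apela ranked 92 in MZ and 84 in wt embryos, and aplnra ranked 102 in MZ and 106 in wt embryos. All 3 were therefore among the more abundant early zygotic transcripts in both genotypes, while over all 31462 genes, maternal ones included, they ranked between 1598 and 2903.

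The balance of the receptors varied between libraries of a genotype, and the genotypes overlapped. The TPM ratio of aplnrb to aplnra was 1.65, 0.931 and 1.47 in MZ and 1.61, 1.05 and 1.53 in wt sphere embryos. By counts, aplnrb made up 67.3% (95% exact interval 65.3 to 69.2), 53.7% (51.8 to 55.5) and 64.6% (62.3 to 66.9) of the receptor reads in MZ libraries. In wt libraries it made up 66.6% (65.2 to 68.0), 56.5% (54.8 to 58.3) and 65.6% (63.9 to 67.4). Replicate 2 had the lowest share in each genotype, with an interval apart from those of the other libraries of its group, and MZ replicate 2 was the only sphere library in which aplnra exceeded aplnrb per length. The expected counts of all 4 genes were whole numbers in all 12 libraries, so that no read had been divided between the receptor copies.

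The balance of ligand and receptor transcripts also varied between the sphere libraries, and an association of their levels within the stage was not tested. The TPM ratio of apela to both receptors together was 0.324, 0.727 and 0.593 in MZ and 0.520, 0.605 and 0.940 in wt sphere embryos. It was lowest in MZ replicate 1, where the receptors summed to 198 TPM and which was the shallowest library, and highest in wt replicate 3. The other libraries held 120 and 101 TPM of receptor transcripts in MZ and 168, 124 and 122 TPM in wt embryos. The ranges of the genotypes overlapped for the ratio and for the sum.

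Both receptors and the genes of the germ layers differed between replicates of a group. The 13 listed mesendoderm genes summed to 1199, 940 and 611 CPM in MZ and 917, 1213 and 696 CPM in wt sphere embryos. Within this sum tbx16 alone averaged 504 ± 183 CPM in MZ and 484 ± 160 CPM in wt embryos. aplnra and the mesendoderm sum were both lowest in replicate 3 of each genotype. This was not particular to mesendoderm. The sums of the early zygotic blastula (1871 CPM in MZ, 2007 CPM in wt), enveloping layer (721 and 1026 CPM) and yolk syncytial layer lists (139 and 197 CPM) were also lowest in replicate 3 of each genotype. The sum of the 10 listed maternal egg genes was highest there. It was 2187 CPM against 1656 and 1848 CPM in the other MZ libraries. In wt embryos it was 2099 CPM against 1851 and 1697 CPM in the other libraries. Between stages edgeR called 6 of these genes lower in MZ and 8 in wt embryos, where 19.6 and 23.6% of all tested genes fell. h1m, at 900 CPM in MZ and 1011 CPM in wt sphere embryos, was not among those called. apela was lowest in replicate 3 only in MZ embryos, at 32.2 CPM against 37.5 and 51.6 CPM. In wt embryos apela was highest in replicate 3. aplnrb too was lowest in replicate 3 only in MZ embryos. In wt embryos aplnrb was lowest in replicate 2, at 114 CPM against 118 CPM in replicate 3. The part of developmental timing in the spread between replicates was not tested.

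The apela counts came almost wholly from 1 of its annotated transcripts. The mean transcript length reported for the gene in a library shows the mix, since the transcripts are 748 and 867 bases long. The longer one made up 98.8 to 100% in the MZ and 98.9 to 100% in the wt sphere libraries. For apln, the transcripts are 846 and 4435 bases long. The longer one made up 9.74 and 24.3% of the estimated transcripts in the MZ sphere libraries that had reads. In the wt sphere libraries it made up 100%. These are shares of estimated transcript abundance, not of reads. At 1 to 3 reads per library these shares are not a measurable difference.

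A further receptor gene, aplnr2 (ENSDARG00000004447), is no member of the 4 but is named as an apelin receptor in the annotation. It was present before zygotic transcription and differed between genotypes. At the 4- to 8-cell stage it stood at 4.59, 3.23 and 3.90 CPM in MZ and 9.20, 4.89 and 6.43 CPM in wt embryos. Every MZ library was below every wt library there, as the libraries did not overlap for 28.9% of all tested genes, with a log2 fold change of -0.79 (SE 0.30) and an edgeR adjusted p of 0.194, in a comparison that called 3.02% of 15937 genes, 1.33% higher and 1.69% lower. At the sphere stage it stood at 14.5, 16.5 and 15.8 CPM in MZ and 5.20, 5.09 and 5.40 CPM in wt embryos, and the libraries again did not overlap, as for 34.5% of all tested genes.

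aplnr2 was thus 2.96-fold higher in MZ sphere embryos (95% interval 2.14 to 4.10), with a log2 fold change of 1.57 (SE 0.20) and an edgeR adjusted p of 0.00912. The call was lost without MZ replicate 2 (adjusted p = 0.0673) or MZ replicate 3 (adjusted p = 0.0558), while the fold change remained near 3. Between stages aplnr2 rose in MZ embryos, by a log2 fold change of 2.04 (SE 0.26, adjusted p = 8.81e-05), and the value in wt embryos was -0.33 (SE 0.25, adjusted p = 0.304). The difference between these changes was tested by the interaction, which was 2.36 (SE 0.36, edgeR adjusted p = 0.0153) and was not called without MZ sphere replicate 2 (0.0627) or 3 (0.0519). Per length, aplnr2 at 9.26 ± 0.814 TPM in MZ sphere embryos remained below aplnra and aplnrb in every library.

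Of the other peptide and chemokine receptor genes and the chemokines that guide mesendodermal cells, most of those tested were higher at the sphere stage. No angiotensin receptor gene was called higher by edgeR. Of 10 listed genes 7 were tested between stages, and 6 rose in MZ and 5 in wt embryos, where 20% of all tested genes rose in MZ and 24.7% in wt. The median log2 fold change was 5.92 in MZ and 6.08 in wt against 0 and -0.01 for all genes. Only 4 of the 10 were above the count minimum in 4- to 8-cell embryos. Genes such as ACKR3 (ENSDARG00000058179), CXCL12 and cxcl12b thus entered the fit through the sphere libraries and had to differ. The count and the median are partly fixed by that filter. Both copies of CXCR4, a chemokine receptor, were at 155 ± 12.4 and 196 ± 16.4 CPM in MZ and 194 ± 16.3 and 212 ± 19.1 CPM in wt sphere embryos, against group means of 3.00 to 3.87 CPM in 4- to 8-cell embryos. ACKR3 (ENSDARG00000058179), a scavenger receptor for the chemokine CXCL12, was at 94.3 ± 6.56 CPM in MZ and 93.3 ± 14.7 CPM in wt sphere embryos. The other copy of ACKR3 (ENSDARG00000062478) was at 0.0673 CPM in MZ and 0.0817 CPM in wt sphere embryos and was not tested. 1 copy of AGTR1 (ENSDARG00000045443), an angiotensin receptor, fell in wt embryos, from 72 summed counts to 7 (log2 fold change -2.86, SE 0.66, edgeR adjusted p = 0.00375). In MZ embryos this copy was not called, at 0.801 ± 0.321 CPM early and 0.586 ± 0.293 CPM at the sphere stage. The other copy of AGTR1 (ENSDARG00000018616) averaged at most 0.451 CPM in any group. Between genotypes at the sphere stage 1 of 6 tested genes was called, aplnr2, and the list median was -0.06 against 0.00 for all genes.

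Genes that carry the receptor signal inside the cell were mostly present from the egg, with 14 of 18 matched genes for G protein alpha subunits, arrestins and receptor kinases above the count minimum in 4- to 8-cell embryos. Of the 18, 15 were tested at the sphere stage and 1 was called, lower in MZ embryos, a share near the 7.78% of all tested genes. It was a copy of GNAI2 (ENSDARG00000017294), an inhibitory alpha subunit of the kind that apelin receptors use. It stood at 51.0, 51.7 and 48.9 CPM in MZ and 95.5, 83.9 and 121 CPM in wt sphere embryos, with no overlap, as for 34.5% of all tested genes, and a log2 fold change of -0.998 (SE 0.15, edgeR adjusted p = 0.0124). The call was lost without MZ replicate 2 (adjusted p = 0.0758) or 3 (0.0626). The other copy (ENSDARG00000018174) had a log2 fold change of 0.06 (SE 0.20, adjusted p = 0.868). The list median was -0.22, against 0.00 for all genes. Between stages 3 of the 15 rose and 3 fell in MZ embryos, where 20% of all tested genes rose and 19.6% fell. In wt embryos 8 rose and 2 fell, where 24.7% rose and 23.6% fell. limma on log2(TPM + 1) called 1 higher and 5 lower in MZ and 2 higher and 3 lower in wt embryos, and the interaction called 0 of the 15 in edgeR and limma and 1 in DESeq2, with 4 at an unadjusted p under 0.05 in edgeR.

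Enzymes that mature or degrade the peptides were in the egg as well, and 8 of 10 matched genes were tested at the sphere stage. edgeR, DESeq2 and limma each called 0 of them between genotypes, where edgeR called 7.78% of all tested genes. Of the 8, 3 had an unadjusted p under 0.05 in edgeR, and the list median was -0.23. Of the convertases, PCSK7 had a log2 fold change of -0.53 (SE 0.20, edgeR adjusted p = 0.123) and PCSK6 -0.32 (SE 0.13, adjusted p = 0.149), and the copies of FURIN had 0.15 (adjusted p = 0.447) and 0.17 (adjusted p = 0.531).

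The Nodal pathway, which induces mesendoderm, had all 16 matched genes tested, and 1 was called at the sphere stage, a share near the 7.78% of all tested genes. gdf3, the zebrafish Vg1 that acts together with Nodal ligands, stood at 264, 261 and 242 CPM in MZ and 514, 484 and 545 CPM in wt sphere embryos, with a log2 fold change of -1.02 (SE 0.09, edgeR adjusted p = 0.00350). At the 4- to 8-cell stage it stood at 460, 404 and 466 CPM in MZ and 328, 361 and 285 CPM in wt embryos, which did not overlap, as for 28.9% of all tested genes (log2 fold change 0.47, SE 0.10, adjusted p = 0.0620). The Nodal ligands ndr1 and ndr2 had sphere log2 fold changes of -0.53 (SE 0.19, adjusted p = 0.114) and -0.96 (SE 0.26, adjusted p = 0.0655), and DESeq2 called 3 genes of the list lower against 1 in edgeR. The list median was -0.14. Between stages 6 genes rose and 4 fell in MZ embryos, and 11 rose and 2 fell in wt embryos, where 20 and 24.7% of all tested genes rose. This balance turned with limma on log2(TPM + 1), which called 3 higher and 7 lower in MZ and 3 higher and 4 lower in wt embryos.

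The mesendoderm genes, in whose cells the receptors act, had 8 of 10 tested genes higher and 1 lower at the sphere stage in both genotypes. Of all tested genes 20% rose and 19.6% fell in MZ, and 24.7% rose and 23.6% fell in wt embryos. The list median log2 fold change was 5.57 in MZ and 5.63 in wt embryos, against 0 and -0.01 for all genes. Only 6 of the 13 were above the count minimum in 4- to 8-cell embryos, so that genes such as tbx16, noto and sox32 entered the fit through the sphere libraries and had to differ, and the count and the median are largely fixed by that filter. At the sphere stage edgeR, DESeq2 and limma each called 0 of 9 between genotypes, where edgeR called 7.78% of all tested genes. Of the 9, 1 had an unadjusted p under 0.05, and the list median was -0.19. mixl1, a homeobox gene of mesendoderm, was at 89.7 ± 39.8 CPM in MZ and 94.5 ± 33.0 CPM in wt sphere embryos. In 4- to 8-cell embryos mixl1 was the 1 gene called of 6, where 3.02% of all tested genes were called, at 7.81, 12.2 and 8.96 CPM in MZ and 2.69, 4.16 and 2.21 CPM in wt embryos (log2 fold change 1.69, SE 0.32, edgeR adjusted p = 0.0466), a call that was lost in each of the 6 fits without 1 library.

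**Figure D4:**
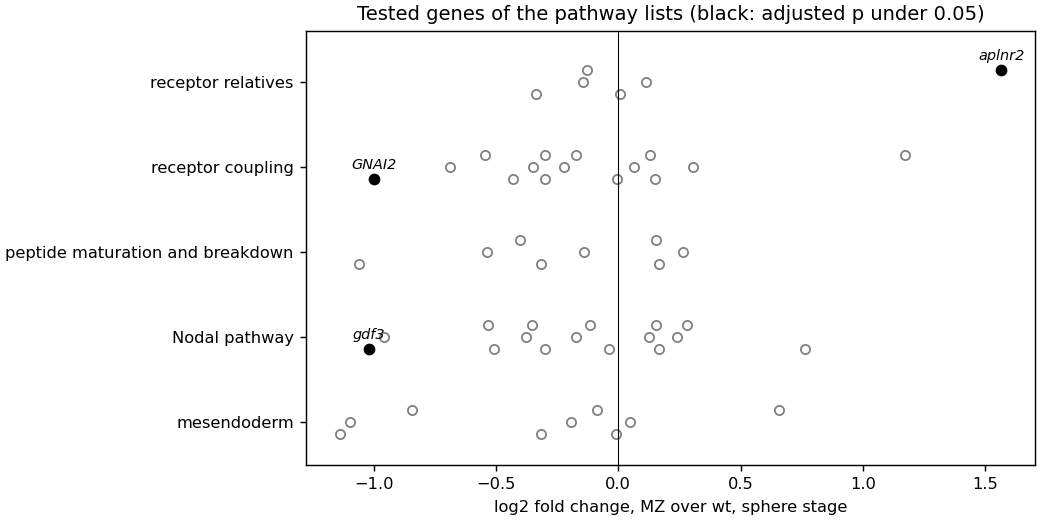
Log2 fold change of MZ over wt sphere embryos (horizontal axis) for the tested genes of 5 lists related to apelin receptor signalling, 1 point per gene. Filled points have an adjusted p under 0.05: aplnr2 (1.57), GNAI2 (-0.998) and gdf3 (-1.02).

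The genes whose pattern over the 12 libraries was most like that of each member were found by Pearson's r of log2(CPM + 1) over 15373 genes. For aplnra these were the mesodermal T-box gene tbx16, NET1 and stm, each with r = 0.999. For aplnrb they were arl4ab, the BMP antagonist chrd (chordin) and si:dkey-95p16.2, each with r = 0.998. For apela they were 3 genes named only after genomic clones, each with r = 0.998. aplnra ranked 7 among the genes most like aplnrb, and aplnrb ranked 38 among those most like aplnra. apela stood further off, at rank 97 for aplnra and rank 91 for aplnrb. The points share libraries and depth, and r is set almost wholly by the step from near 0 to the sphere level, so that it describes that step and says little of the spread between replicates.

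The genes directly next to the members that could be tested had changes between stages of less than 1 on the log2 scale. In the RefSeq order of assembly GRCz12tu, which was used only to find neighbours because the files use another build, aplnra lies beside tbc1d10aa and aplnrb beside its paralogue tbc1d10ab. tbc1d10aa was at 25.9 ± 1.68 CPM in MZ and 23.4 ± 6.09 CPM in wt sphere embryos, and its log2 stage change was -0.21 in MZ (edgeR adjusted p = 0.358) and -0.37 in wt embryos (0.0966). tbc1d10ab was at 7.55 ± 0.335 CPM in MZ and 8.75 ± 2.87 CPM in wt sphere embryos, with stage changes of 0.11 (adjusted p = 0.805) and -0.46 (0.235). On the other side, orai1a was measured beside aplnra, with a stage change of 0.25 in MZ (0.298) and 0.34 in wt embryos (0.141). On the other side of aplnrb the nearest gene matched was pmaip1, 3 genes away, which rose in MZ embryos by 2.47 (adjusted p = 0.00147) to 3.44 ± 1.76 CPM at the sphere stage, against 0.621 ± 0.292 CPM at the 4- to 8-cell stage, and had 0.87 in wt embryos (0.112). Its genotype difference was -1.99 in 4- to 8-cell embryos (0.0643) and -0.40 at the sphere stage (0.575).

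Next to apela, tmem192 had a log2 stage change of 0.11 in MZ embryos (edgeR adjusted p = 0.525) and rose in wt embryos, by 0.52 (0.00525). Its sphere level was 81.7 ± 6.86 CPM in MZ and 93.1 ± 14.9 CPM in wt embryos. marchf1, on the other side of apela, and xpnpep2 and vimr2, on either side of apln, averaged at most 0.435 CPM in any group and were not tested. The genotype differences of tbc1d10aa, tbc1d10ab and tmem192 at the sphere stage were 0.14 (edgeR adjusted p = 0.694), -0.22 (0.657) and -0.20 (0.395).

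**Figure D5:**
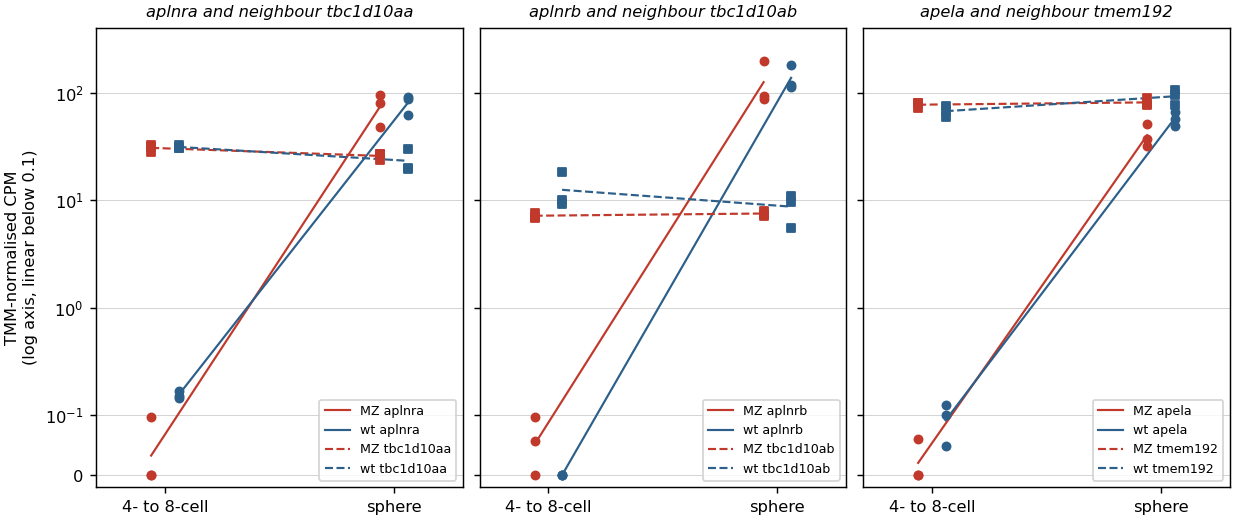
TMM-normalised CPM (log axis, linear below 0.1) at the 4- to 8-cell and sphere stages of aplnra, aplnrb and apela (circles, solid lines) and of a gene next to each in the RefSeq order (squares, dashed lines), MZ in red and wt in blue, with points for libraries and lines joining group means. The members climb from below 0.2 CPM to above 30 CPM while tbc1d10aa, tbc1d10ab and tmem192 stay within 5 to 110 CPM.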

How the data were processed

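The authors sequenced poly-A RNA as paired ends, used build danRer10 with an Ensembl annotation, and per the labels processed reads with Bowtie and RSEM, with versions not given in the sources used here. The deposited expected counts, which RSEM splits by probability between genes, were rounded. The authors also deposited TPM values and, as other columns, transcript lengths, which were read as deposited. A gene name table and the gene annotation of the study gave symbols for 25760 identifiers (81.9%). Symbols in capitals do not say which zebrafish copy was meant. Members, lists and tests were chosen with earlier results of these data known.

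The ribosomal RNA gene zgc:158463 was removed, genes with a mean TMM-scaled count above 10 over the libraries of a fit were kept, and edgeR 4.0.16 (R 4.3.3) quasi-likelihood tests were adjusted over all tested genes, with an adjusted p under 0.05 called. Genotypes were fitted within a stage, and stage changes and the interaction in 1 fit to 12 libraries. Standard errors are those implied by the F statistic and intervals use the fit's degrees of freedom. Genes named were the 4 members, smchd1, aplnr2, and from each list up to 3 called genes. Genes of a list that were not called, neighbours and genes most alike were named after their values were seen. Results were repeated with other size factors, filters and rounding, with DESeq2 1.42.0 and limma 3.58.1 (log2 of TPM plus 1 or 0.1), with a replicate block and without each library. The scripts were tested on simulated data. Sequences were not used here.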

Additional observations from a re-analysis of the deposited data

Results flagged for a closer look

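The genotype difference of aplnr2 differed between the stages by the interaction test: the log2 fold change of MZ over wt was -0.79 at the 4- to 8-cell stage, which was not called (adjusted p = 0.194), and 1.57 at the sphere stage, a log2 interaction of 2.36 (SE 0.36, edgeR adjusted p = 0.0153). The genotype difference of gdf3 differed between the stages in the other direction, with a log2 interaction of -1.48 (SE 0.14, edgeR adjusted p = 0.00241), and 3 of 3 MZ sphere libraries were below every wt library. At the sphere stage the libraries did not overlap for either gene, as for 34.5% of all tested genes. The gdf3 interaction was called in each of 23 alternatives, and that of aplnr2 in 21 of them. No explanation was tested for either.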

How the results depend on the processing

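The rise of apela, aplnra and aplnrb between stages was fixed by the count minimum, so that its repeats say nothing of stability. None of these genes was called between genotypes or by the interaction under any alternative tried. At the sphere stage the aplnra difference changed sign with limma, to 0.0059 on log2(TPM + 1) and 0.0055 on log2(TPM + 0.1), and it ran from -0.34 to 0.12 without each library. That of aplnrb ran from -0.63 to 0.12 without each library, and the apela interaction was -0.17 with limma on log2(TPM + 1). With limma on log2(TPM + 1) the median of all genes shifted by 0.13 between genotypes at the sphere stage, by -0.35 between stages in MZ and by -0.48 in wt embryos. Its calls for sphere against 4- to 8-cell, MZ, were 1875 higher and 6761 lower, and those for sphere against 4- to 8-cell, wt, were 1804 higher and 8102 lower, against a near even split in edgeR (3311 and 3249 in MZ, 4105 and 3914 in wt). With no size factors they were 2822 and 3839 in MZ and 3108 and 4992 in wt. For the genotype by stage interaction the split was 182 higher and 145 lower, against 279 and 106 by limma on log2(TPM + 1) and 223 and 94 with no size factors.

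Counts of called genes over the whole table moved more. For MZ against wt at the 4- to 8-cell stage 482 genes were called, against 1927 by DESeq2 and 125 to 333 without each library. For MZ against wt, sphere, 1269 were called, against 2725 by DESeq2, 2591 in a fit to all 12 libraries and 84 to 1250 without each library. The interaction called 327, against 1450 by DESeq2 and 26 to 806 without each library. The labels do not say whether equal replicate numbers mark samples collected together. Same-numbered libraries of the groups compared correlated at -0.07 to 0.32 in their deviations, highest for replicate 3 of MZ and wt sphere embryos. A shared collection was not tested. With the replicate block 66 genes were called at the 4- to 8-cell stage, and the log2 differences at the sphere stage were -0.15 for aplnra and -0.21 for aplnrb. The few early reads, 0 to 10 per group, limit every fold between stages.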

Other observations

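Genes of the vessels and heart, in which apelin and its receptors act later in life, were scarce in these embryos. Of 8 listed vascular and cardiac genes, the sums over a library were 3.02 to 5.04 CPM in MZ and 2.96 to 6.05 CPM in wt sphere embryos. Of 3 tested endothelial markers 2 were called lower in MZ sphere embryos, in a comparison that called 4.07% of genes lower. The third, kdrl, was not called (log2 fold change -0.31, SE 0.71, edgeR adjusted p = 0.805). A further listed marker, etsrp, was too scarce to test, at 0.235 CPM in MZ and 0.227 CPM in wt sphere embryos. FLI1, an ETS factor of endothelium, was at 0.380 ± 0.241 CPM in MZ and 2.02 ± 0.788 CPM in wt sphere embryos (SD, n = 3 each, log2 fold change -2.51, SE 0.57, edgeR adjusted p = 0.0406). cdh5, the cadherin of endothelial junctions, was at 0.488 ± 0.262 CPM in MZ and 2.15 ± 0.611 CPM in wt sphere embryos (log2 fold change -2.20, SE 0.54, edgeR adjusted p = 0.0494). These rest on 12 and 16 summed counts in the MZ libraries, and limma on log2(TPM + 1) called 0 of the 3 with 2 at an unadjusted p under 0.05. The cdh5 call was lost in every edgeR fit that left out 1 library, with adjusted p from 0.0539 to 0.176. The FLI1 call was lost in most of these fits, with adjusted p up to 0.183. Both transcripts were already present in 4- to 8-cell embryos. There FLI1 averaged 1.82 ± 2.51 CPM in MZ and 1.92 ± 1.15 CPM in wt embryos, and cdh5 1.97 ± 0.459 and 2.91 ± 1.57 CPM. Between stages cdh5 fell in MZ embryos (log2 fold change -2.03, SE 0.55, edgeR adjusted p = 0.0122). Low RNA of these genes in a blastula is no measure of endothelium.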
